A study of Rattus norvegicus with 6 samples.

Results

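The nuclear-encoded genes of oxidative phosphorylation were examined in the dorsal root ganglia (DRG) of rats with chronic constriction injury (CCI). They were taken by symbol, as protein-coding rows named for the NADH dehydrogenase (Nduf), succinate dehydrogenase (Sdh), ubiquinol-cytochrome c reductase (Uqcr), cytochrome c oxidase (Cox) and ATP synthase (Atp5) families, with 1 row per symbol, the row with the most reads. Of 85 symbols that matched, 84 had a protein-coding row and 80 passed a minimum mean FPKM of 0.5, out of 43350 gene rows in the whole table. FPKM scales fragment counts by transcript length and by library depth, and is the scale used here to compare genes with each other. These 80 genes comprised 34 of complex I, 4 of complex II, 8 of complex III, 17 of complex IV and 17 of complex V. Ndufa4 and Ndufa4l2, named for complex I, were counted with complex IV, and Atp5if1 is an inhibitor of complex V. No fold change entered the rule for the members, which were chosen with earlier results of these data known.

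Male Sprague-Dawley rats were used, and the labels give no age. In the CCI group (n = 3) the left sciatic nerve was loosely ligated, and in the sham group (n = 3) it was exposed in the same manner and left untied. The labels record no treatment for sham rats and a pooled sample in library preparation, whereas the study's methods describe nerve exposure and 1 rat per sample, which was the reading adopted. Ganglia of lumbar levels 4 to 6 on the side of surgery were collected on day 11, and total RNA depleted of ribosomal RNA was sequenced, so that neurons, glia, immune cells and vessels were measured together. In such bulk tissue, fewer cells of a type and less RNA per cell cannot be told apart.

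The respiratory chain passes electrons from NADH, through complex I, and from succinate, through complex II, to ubiquinone, then through complex III to cytochrome c and through complex IV to oxygen. Complexes I, III and IV pump protons across the inner mitochondrial membrane, and complex V, the ATP synthase, lets them flow back to make ATP. Most subunits are encoded in the nucleus and imported, while a small core set is encoded by the mitochondrial genome, so that both genomes must supply each of complexes I, III, IV and V. Sensory neurons with large cell bodies and long axons depend on this pathway for ion pumping and axonal transport.

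Many promoters of these genes carry short motifs for factors that are known to drive them together, and the members' promoters were searched for 4 such motifs on both strands. RefSeq promoters of the rat build GRCr8, 250 bases before to 50 after the transcription start, were found by symbol for 69 of the 80 genes. The nuclear respiratory factor 1 (NRF1) motif GCGCNTGCG, where N is any base, was in 26.1% of these 69 promoters and in 8.08% of all 19005 protein-coding promoters. The ETS motif CCGGAAG, to which GABP binds, was in 27.5% against 11.2%, the YY1 motif AANATGGCG in 23.2% against 4.0%, and the estrogen-related receptor (ERR) motif AAGGTCA in 14.5% against 3.70%. At least 1 of the 4 motifs lay in 63.8% of members' promoters and in 23.4% of all promoters. A match describes letters only and shows no binding.

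Stretches from 130 bases before to 30 after the start are printed for 4 genes that were lower in CCI at an unadjusted p under 0.05 and for Cox6b2, the single gene past the study's limits. Capitals mark motif letters on either strand, namely YY1 in Ndufs1 and Ndufb8, NRF1 in Ndufa5, and ERR and NRF1 in Atp5mc3. The 4 motifs' letters were in neither the printed stretch nor the whole searched window of Cox6b2. The 4 lower genes printed are examples that carry a motif. Of the other genes lower at that level, Ndufb3 and Ndufb6 had none of the 4 motifs in the searched window. Atp5f1a, Ndufa9 and Ndufa12 had at least 1.
Ndufs1, chr9:72073576-72073735, minus strand: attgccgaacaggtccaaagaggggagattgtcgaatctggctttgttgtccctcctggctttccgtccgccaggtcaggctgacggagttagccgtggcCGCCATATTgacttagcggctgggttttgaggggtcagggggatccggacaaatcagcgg
Ndufa5, chr4:53971206-53971365, minus strand: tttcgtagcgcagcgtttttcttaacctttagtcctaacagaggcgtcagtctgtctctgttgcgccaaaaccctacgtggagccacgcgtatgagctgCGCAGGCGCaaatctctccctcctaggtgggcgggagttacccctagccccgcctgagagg
Ndufb8, chr1:253362907-253363066, minus strand: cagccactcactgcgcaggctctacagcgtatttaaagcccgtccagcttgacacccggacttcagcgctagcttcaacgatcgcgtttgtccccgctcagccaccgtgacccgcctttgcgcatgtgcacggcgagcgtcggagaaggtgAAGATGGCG
Atp5mc3, chr3:79220635-79220794, minus strand: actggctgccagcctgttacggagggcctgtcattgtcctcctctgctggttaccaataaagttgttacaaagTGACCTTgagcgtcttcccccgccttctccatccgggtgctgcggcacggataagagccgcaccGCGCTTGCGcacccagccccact
Cox6b2, chr1:78122741-78122900, plus strand: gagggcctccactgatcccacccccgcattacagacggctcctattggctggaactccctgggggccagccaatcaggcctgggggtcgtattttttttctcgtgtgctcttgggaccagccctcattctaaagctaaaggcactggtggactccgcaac

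The counts summed to between 75423546 and 87615743 per library, the TMM factors that scale libraries lay between 0.988 and 1.01, and a floor of 3 counts was equal to at most 0.0394 CPM. CPM values, which put the libraries on equal depth with those factors, are used to compare libraries. All 13 subunits of the mitochondrial genome were listed at 0 counts in every library, as were all 37 rows of that chromosome, so the nuclear subunits could not be set against their mitochondrial partners. Defining markers of sensory ganglia were abundant, with Nefl, a neurofilament, at a mean of 1137 FPKM and Calca, a nociceptor neuropeptide, at 309.1 FPKM. Between groups, 5 of 13 neuron markers were lower and 2 higher in CCI at an unadjusted p under 0.05, beside 5.18% and 5.57% of all rows tested. The summed FPKM of that list ran from 5420 to 5921 in CCI and from 5983 to 6283 in sham. Of 11 macrophage markers, 7 passed the study's limits upward, beside 2.57% of all rows. The sums of the 11 ran from 54.8 to 83.7 FPKM in CCI and from 34.5 to 41.6 FPKM in sham. The part of these shifts in the results below was not tested.

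Most nuclear subunit genes were abundant in the 6 libraries, with log2 fold changes near zero between CCI and sham rats. The mean level over 6 libraries ranged from 0.53 FPKM for Ndufa4l2 to 340.0 FPKM for Atp5f1b, with a median of 37.5 FPKM, and 73 of 80 genes were at 10 FPKM or more. Genes were called at the study's limits, a size of log2 fold change no smaller than 0.58 together with p below 0.05 before adjustment, with edgeR's quasi-likelihood test fitted on 26663 rows. Only Cox6b2 was called higher and 0 of 80 were called lower, where 2.57% of all rows tested were called higher and 1.26% lower. No member reached a Benjamini-Hochberg adjusted p under 0.05 in edgeR, the smallest being 0.268, and 0.0638% of all rows were higher and 0.03% lower at that threshold. Without any correction, 13 members had p under 0.05 in edgeR, and DESeq2 gave 1 member an adjusted p under 0.05, Cox7a1, where 1.61% of the rows it tested were higher at that threshold.

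The small differences lay mostly on the lower side. The log2 fold change of CCI over sham was negative for 64 of 80 members (80%), against 49.0% of all rows, and its median was -0.09 for the members, 0.01 for all rows, and -0.03 for protein-coding rows of at least 10 FPKM, of which 58.1% were negative. At an unadjusted p under 0.05 with no limit on size, 10 members were lower (12.5%) and 3 higher (3.75%), beside 5.18% and 5.57% of all rows. Of the 4176 protein-coding rows of at least 10 FPKM, 471 were lower and 328 higher at that level. The members' share of lower genes was thus near that of rows of like abundance. All 3 CCI libraries lay below all 3 sham libraries for 20 members (25%) and above them for 3 (3.75%), where the shares over all rows were 8.7% and 8.63%. Among the same 4176 rows, the CCI libraries lay wholly below for 763 and wholly above for 437. For 71 of 80 members the 95% confidence interval of the log2 fold change stayed within 0.58 on either side of zero, so that a change of 1.49-fold or more was outside the interval. The 9 whose interval reached further were Ndufa1, Uqcr10, Cox4i2, Cox6a2, Cox6b2, Cox7a1, Ndufa4l2, Atp5mc2 and Atp5md.

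**Figure D1:**
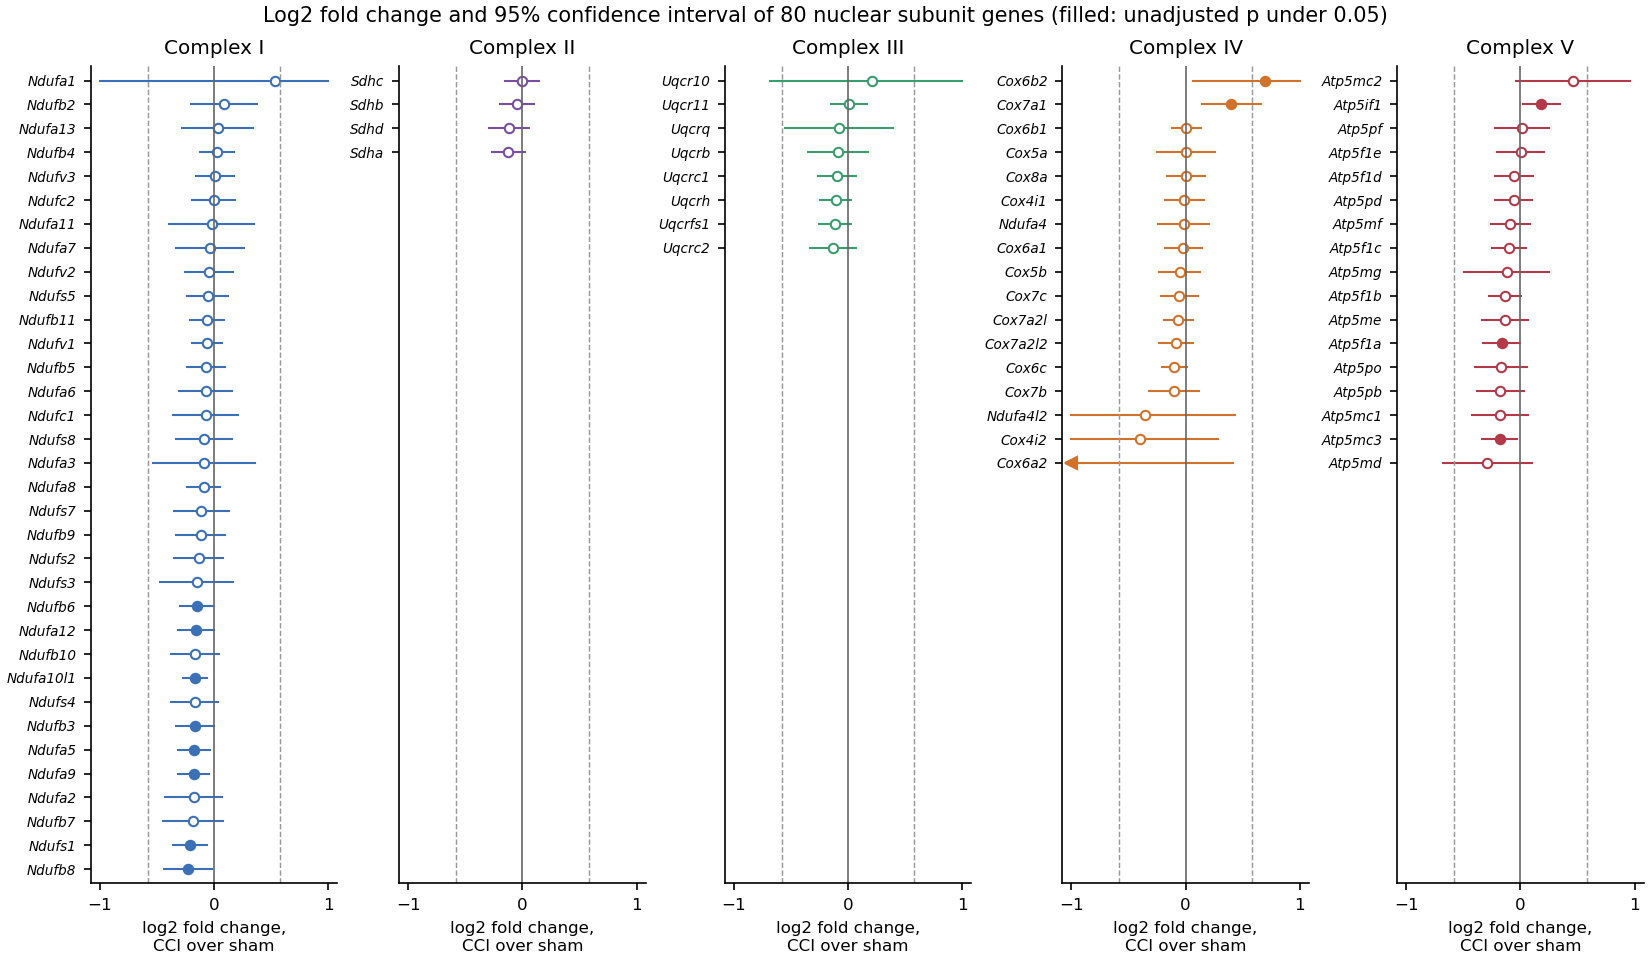
Log2 fold change of CCI over sham (x axis, limited at -1 and 1) for each of the 80 genes (y axis), by complex, with the 95% confidence interval of edgeR's fit as a line; filled points have an unadjusted p under 0.05 and dashed lines mark 0.58 in size. Most points sit just left of zero, the median being -0.09, and Cox6a2, at -4.47, lies off the scale at the arrowhead.

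The summed level of the 80 genes overlapped between CCI and sham rats. The 80 genes summed to 3959, 4343 and 4249 FPKM in CCI 1, 2 and 3, and to 4268, 4501 and 4274 FPKM in sham 1, 2 and 3. The groups overlapped, since CCI 2 lay above sham 1 and sham 3, and the mean was 4184 ± 200.2 FPKM (SD, n = 3) in CCI and 4348 ± 132.9 FPKM (SD, n = 3) in sham, a ratio of 0.962. An exact permutation test of 3 against 3 cannot go below p = 0.1, and none was run on this sum. CCI 1 held the lowest CPM of all 6 libraries for 41 of 80 members and sham 2 the highest for 39. Without CCI 1, 3 members in place of 10 were lower at an unadjusted p under 0.05, without sham 2 there were 4 and without sham 3 there were 3.

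**Figure D2:**
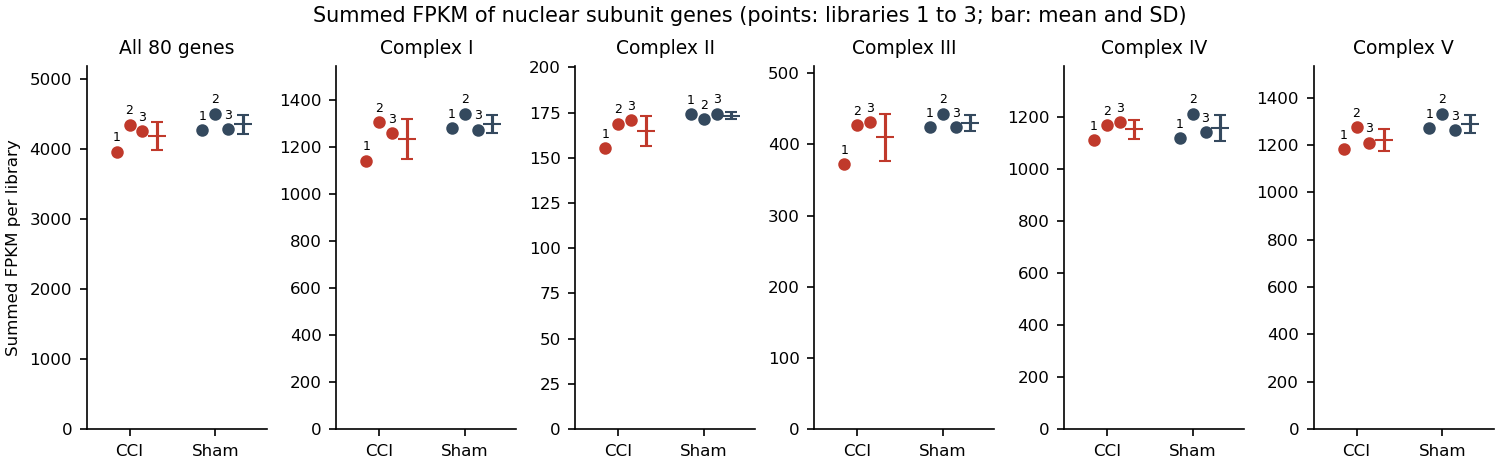
Summed FPKM per library (y axis, from zero) of all 80 genes and of each complex in CCI (red) and sham (grey) rats, with library numbers beside the points and the mean and SD (n = 3) to their right. CCI 1 is the lowest point of every panel, and the groups overlap in every panel except that of complex II, where CCI reaches 170.8 and sham starts at 171.2.

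**Figure D3:**
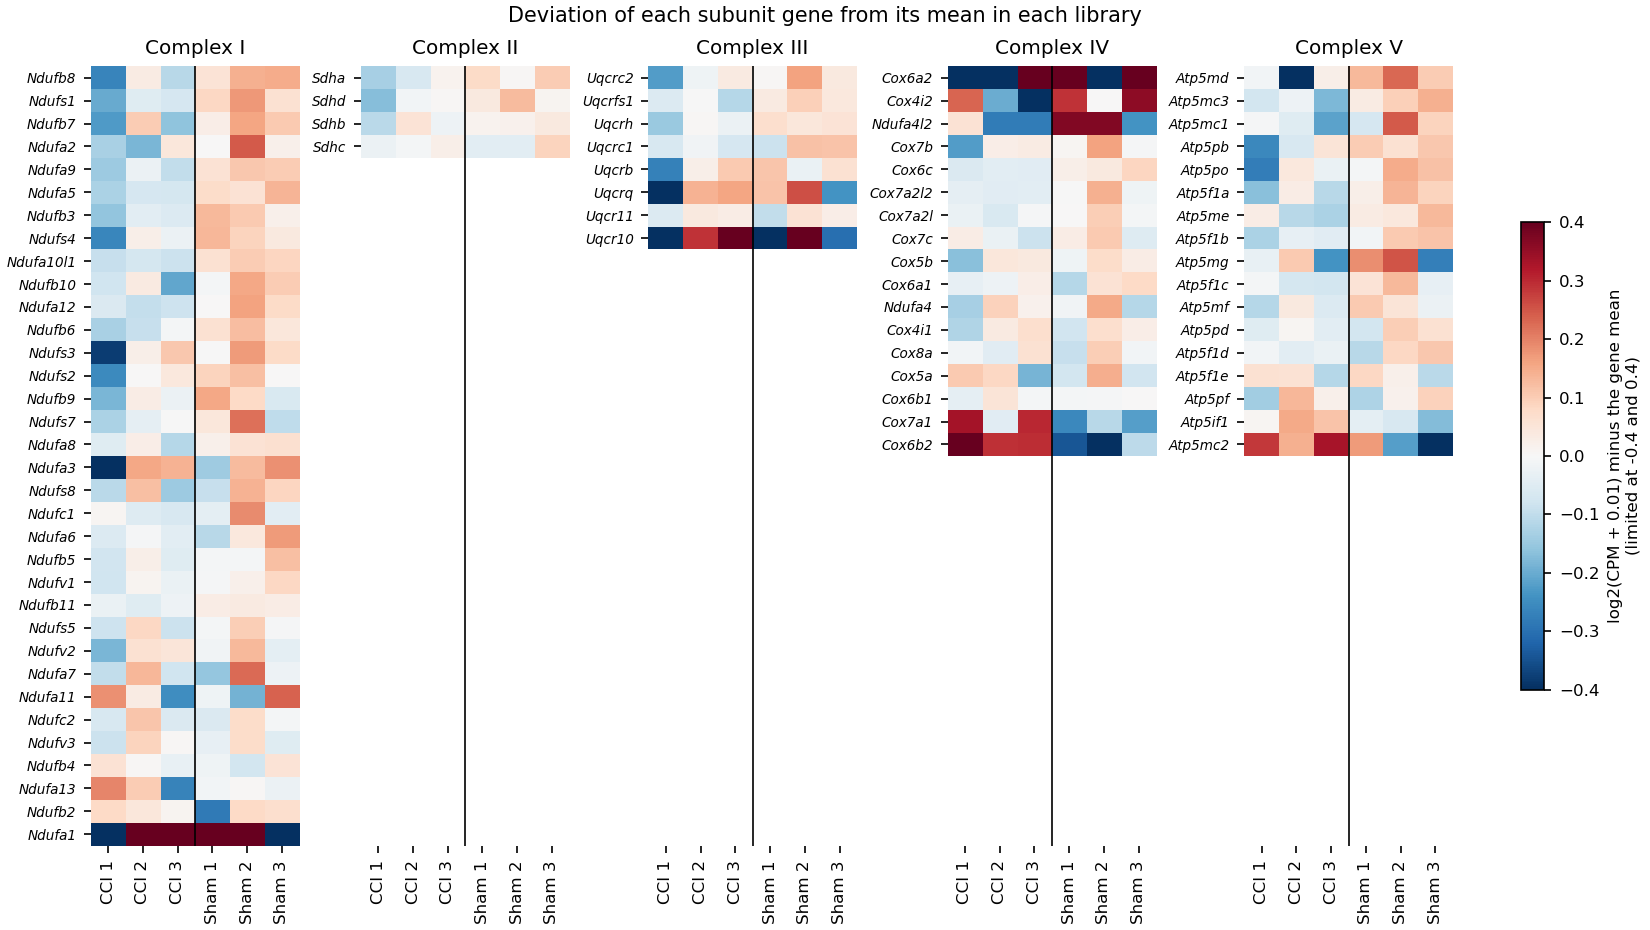
Log2(CPM + 0.01) of each gene minus its mean over the 6 libraries, in colour limited at -0.4 and 0.4, with genes in rows by complex and libraries in columns; the black line separates CCI from sham. CCI 1 is mostly blue and sham 2 mostly red, and the saturated rows of Ndufa1 and Cox6a2 are genes listed at 0 in some libraries.

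Complex I, the entry point for electrons from NADH, held 34 of the 80 members and 8 of the 10 that were lower at an unadjusted p under 0.05, which is 23.5% of its genes beside 5.18% of all rows. They were Ndufs1, Ndufb8, Ndufa9, Ndufa5, Ndufb3, Ndufa12, Ndufb6 and Ndufa10l1, and none of the 34 genes was higher at that level. The row of Ndufb6 joins it with Topors, so its value is not that of Ndufb6 alone. The median log2 fold change was -0.09 over the 34 genes, of which 29 were negative, and 10 (29.4%, beside 8.7% of all rows) had every CCI library below every sham library. Of 4176 protein-coding rows of at least 10 FPKM, 471 were lower at an unadjusted p under 0.05. For 763 of them every CCI library lay below every sham library. None of the 34 genes passed the fold limit.

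Ndufs1, the largest core subunit, which carries iron-sulfur clusters of the electron path, lies on chromosome 9 at 69919867 to 69953182 in the authors' genome. It was at 133.8, 148.6 and 146.7 CPM in CCI 1, 2 and 3 and at 163.0, 173.5 and 160.5 CPM in sham 1, 2 and 3. The groups did not overlap, with the highest CCI rat below the lowest sham rat, and the log2 fold change was -0.21 ± 0.06 (SE), with unadjusted p = 0.0132 and adjusted p = 0.312 in edgeR. Leaving out any 1 library kept its unadjusted p between 0.0186 and 0.0475. All 7 core subunits measured had a negative log2 fold change, between -0.21 and -0.05, with a median of -0.11. The most abundant of them, Ndufv2, a flavoprotein-arm subunit at 87.1 FPKM, was at 74.6, 88.5 and 87.6 CPM in CCI and 83.9, 92.7 and 82.5 CPM in sham, and its groups overlapped.

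Ndufb8, an accessory subunit of the membrane arm, had the most negative log2 fold change of complex I among genes with a mean of at least 100 counts. It was at 36.3, 44.6 and 40.3 CPM in CCI and 45.3, 48.1 and 48.3 CPM in sham. The CCI libraries all lay lower, the nearest pair differing by less than 1 CPM, and the log2 fold change was -0.23 ± 0.09 (SE), with unadjusted p = 0.0384 and adjusted p = 0.426 in edgeR. Its unadjusted p stayed under 0.05 without CCI 2 and without sham 1, and reached 0.0974 without sham 3. The 8 accessory subunits of the peripheral arm had a median log2 fold change of -0.16 and the 19 of the membrane arm one of -0.08. Ndufb2, a membrane arm subunit, was at 12.8, 12.5 and 12.2 CPM in CCI and 9.91, 12.7 and 12.6 CPM in sham, with only sham 1 set apart.

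Ndufa10l1 had the smallest p of all members in edgeR, 0.00831, with a log2 fold change of -0.17 ± 0.04 (SE) and an adjusted p of 0.268. It was at 119.1, 121.0 and 119.7 CPM in CCI and 132.6, 136.3 and 134.9 CPM in sham. Both groups were tight and apart. Its row is described in the table as the A10 subunit of complex I, and RefSeq places the symbol on another chromosome, so the identity of the gene is uncertain. Ndufa1, a small subunit needed for assembly, was listed at 0 in CCI 1 and sham 3 while CCI 2 and 3 gave 829 and 801 reads, and sham 1 and 2 gave 597 and 604, and no difference can be read from it.

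Complex II, succinate dehydrogenase, is wholly nuclear-encoded and links the tricarboxylic acid (TCA) cycle to the chain. None of its 4 genes passed any test, although all 4 log2 fold changes were negative, with a median of -0.08. Sdha, the flavoprotein that oxidises succinate, was at 150.3, 157.6 and 166.5 CPM in CCI and 174.0, 165.6 and 177.0 CPM in sham, so that CCI 3 reached just above sham 2. Its log2 fold change was -0.12 ± 0.06 (SE), with unadjusted p = 0.0780 and adjusted p = 0.537 in edgeR. Sdhd, a membrane anchor, was at 40.5, 45.3 and 45.7 CPM in CCI and 46.8, 49.8 and 46.0 CPM in sham, a narrow separation with adjusted p = 0.654 in edgeR. Sdhb, the iron-sulfur subunit, and Sdhc, the other anchor, had log2 fold changes of -0.05 and -0.01 and overlapping groups, and the sign of Sdhc turned in limma fits.

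Complex III passes electrons from ubiquinol to cytochrome c, and none of its 8 nuclear genes taken by the rule passed the test. The median log2 fold change of the 8 was -0.09. The complex III subunit Cyc1 was not matched by the symbol rule, nor were Ndufab1 and cytochrome c itself, Cycs. These 3 genes had a median log2 fold change of -0.12, and 0 of them had an unadjusted p under 0.05 in edgeR. Uqcrh, the hinge subunit and the most abundant at 168.5 FPKM, was at 91.1, 101.2 and 99.3 CPM in CCI and 105.8, 104.1 and 104.9 CPM in sham. Its groups were apart, with a log2 fold change of -0.11 ± 0.06 (SE) and adjusted p = 0.58 in edgeR. Uqcrfs1, the Rieske iron-sulfur protein at the heart of electron transfer, was at 46.8, 48.6 and 44.9 CPM in CCI and 49.8, 51.9 and 50.1 CPM in sham, also apart, with adjusted p = 0.564 in edgeR.

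The core protein Uqcrc2 had the most negative value of complex III, -0.13 ± 0.08 (SE). It was at 89.0, 102.7 and 106.4 CPM in CCI and 104.4, 116.1 and 106.8 CPM in sham, and CCI 3 lay above sham 1. Uqcr10 and Uqcr11, small accessory subunits, had log2 fold changes of 0.20 ± 0.37 and 0.01 ± 0.07 (SE). Uqcr10 ranged from 5.96 to 13.8 CPM in CCI and from 6.70 to 12.8 CPM in sham, a spread wider than any difference between the groups. The row of Uqcr11 joins it with Mbd3. The row used for Uqcrb lies on chromosome 1, another chromosome than that of the RefSeq gene. A second Uqcrb row, on chromosome 7, had a log2 fold change of -0.20 and adjusted p = 0.635 in edgeR.

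Complex IV, cytochrome c oxidase, reduces oxygen, and several of its nuclear subunits exist as tissue-specific isoforms. The 11 usual or single-form subunits differed least of all, with log2 fold changes from -0.10 to 0.01 and a median of -0.02. Cox4i1, the regulatory subunit of most tissues and the most abundant at 231.9 FPKM, was at 175.6, 195.4 and 199.9 CPM in CCI and 180.9, 199.7 and 194.5 CPM in sham. The groups were interleaved, the log2 fold change was -0.01 ± 0.07 (SE), and its sign turned in limma fits and when some single libraries, CCI 1 among them, were left out. Cox6b1 was at 49.5, 52.5 and 50.5 CPM in CCI and at 50.5, 50.6 and 50.8 CPM in sham, and these groups overlapped as well.

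Of the usual forms, Cox7b had the most negative value, -0.10 ± 0.09 (SE), at 48.6, 57.8 and 58.04 CPM in CCI and 57.0, 63.4 and 56.5 CPM in sham. Only CCI 1 lay below the sham range. Cox6a1, Cox8a and Ndufa4 had log2 fold changes of -0.02, 0.00 and -0.02 with overlapping groups. Cox6c used a row joined with a neighbouring transcript, and its own second row gave -0.07 ± 0.06 (SE). The symbol Cox7a2l2 lies on chromosome 8, where RefSeq has Cox7a2, the usual counterpart of Cox7a1, and it was at -0.08 ± 0.06 (SE).

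The alternative isoforms of complex IV held both of its genes that were higher in CCI at an unadjusted p under 0.05 (11.8% of its 17 genes, beside 5.57% of all rows). Cox6b2, best known from testis, is a low-level gene of 1.53 FPKM on chromosome 1 at 72661211 to 72662434. It drew 86, 76 and 72 reads in CCI rats, or 1.06, 0.941 and 0.945 CPM, and 53, 40 and 59 reads in sham rats, or 0.603, 0.504 and 0.713 CPM. Every CCI rat lay above every sham rat, with a log2 fold change of 0.69 ± 0.26 (SE), unadjusted p = 0.0352 and adjusted p = 0.418 in edgeR. The usual isoform Cox6b1 was at 77.0 FPKM and had a log2 fold change of 0.01. The call of Cox6b2 was lost in DESeq2 (unadjusted p = 0.0567), in limma on log2(FPKM + 1), where the log2 fold change was 0.43, and when any library other than sham 3 was left out, with an unadjusted p in edgeR of up to 0.0934.

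Cox7a1, the isoform of heart and skeletal muscle, was the most abundant alternative form at 31.3 FPKM, on chromosome 1 at 91070414 to 91095062. It was at 202.8, 156.0 and 198.2 CPM in CCI and 134.5, 148.9 and 138.2 CPM in sham. All CCI rats lay above all sham rats, CCI 2 least so, and the log2 fold change was 0.40 ± 0.11 (SE), under the study's fold limit, with unadjusted p = 0.00870 and adjusted p = 0.271 in edgeR. Its unadjusted p stayed between 0.000408 and 0.0314 when each library was left out in turn. An unnamed row on the opposite strand overlaps it, with counts of 0, 1144 and 0 in CCI and of 301, 0 and 1538 in sham. A longer row on that strand spans the whole gene, with 1983, 2110 and 2104 counts in CCI and 2583, 2346 and 2217 in sham. Whether strand was used in counting is not stated, so the counts of Cox7a1 are less certain than others.

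Cox4i2, a form known from lung, and Ndufa4l2, a form known to respond to low oxygen, were at 1.26 and 0.53 FPKM and did not pass the test. Cox4i2 was at 1.67, 1.24 and 0.879 CPM in CCI and 1.74, 1.42 and 1.83 CPM in sham, with a log2 fold change of -0.40 ± 0.28 (SE). Ndufa4l2 was at 0.566, 0.446 and 0.446 CPM in CCI and 0.705, 0.705 and 0.459 CPM in sham, with -0.36 ± 0.33 (SE). In both genes the groups overlapped.

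Cox6a2, the muscle form of subunit VIa, was seen in few libraries. Its counts were 0, 0 and 6 in CCI and 142, 0 and 15 in sham, so that sham 1 held most of its reads and the groups overlapped. Cox8b, another muscle form, was under the FPKM minimum with 8, 5 and 9 counts in CCI and 34, 4 and 18 in sham. Sham 1 was also the highest library for Ckm, the muscle creatine kinase, whose counts were 100, 59 and 15 in CCI and 2825, 67 and 410 in sham, and for Acta1, skeletal actin, with 591, 340 and 329 in CCI and 7943, 334 and 1164 in sham.

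Of 12 skeletal muscle markers tested, all had a negative log2 fold change and 5 passed the study's limits downward, beside 1.26% of all rows. The 5 were Acta1, Actn3, Ckm, Mylpf and Tnni2. Without sham 1 only Tnni2 of these 5 still passed, and the log2 fold change of Acta1 was -0.80. The calls of Acta1, Actn3, Ckm and Mylpf were also lost without CCI 2 and without CCI 3, and those of Acta1 and Actn3 without CCI 1. The list summed to 13.4, 8.08 and 6.78 FPKM in CCI and to 180.2, 8.17 and 26.6 FPKM in sham. Cox6a2 and Cox8b were highest in the same library, sham 1, and next highest in sham 3. Cox7a1 had its lowest level in sham 1, where the skeletal muscle list was highest. Smooth muscle and pericyte markers summed to 59.8, 59.8 and 61.7 FPKM in CCI and to 59.0, 48.3 and 47.4 FPKM in sham. Of these 7 markers, 2 were higher and 0 lower at an unadjusted p under 0.05 in edgeR, beside 5.57% and 5.18% of all rows. Of 4 slow and cardiac muscle markers tested, 1 was called higher and 1 lower, beside 2.57% and 1.26% of all rows. That list includes Csrp3, a gene that the paper describes as commonly induced by nerve injury. The part of any of these cell types in the values of Cox6a2, Cox8b and Cox7a1 was not tested. Cox7b2 and Cox6c-ps1 were listed at 0 in all libraries, and Cox8c had 12 counts in CCI 1 and 0 elsewhere.

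**Figure D4:**
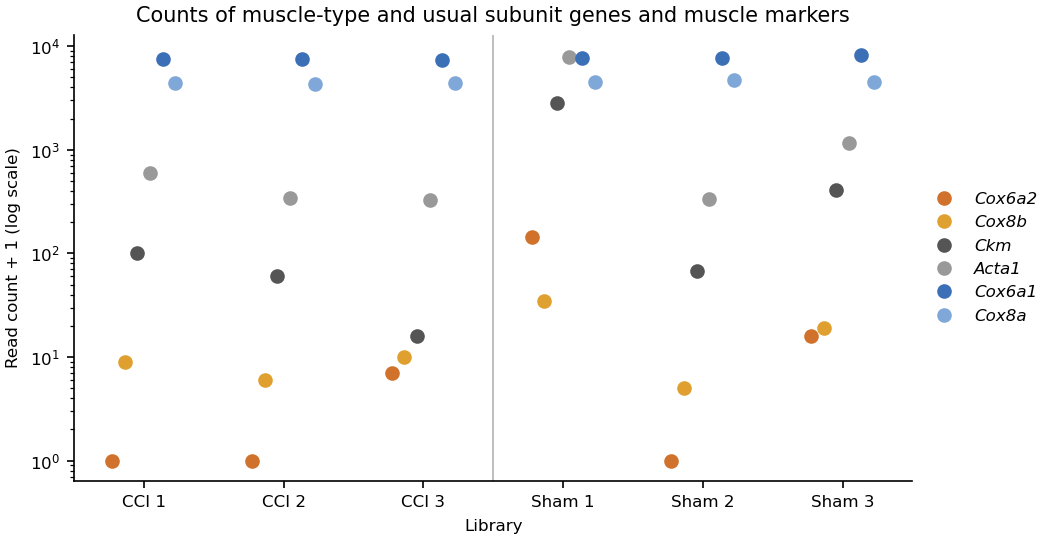
Read count + 1 on a log scale (y axis) in each library (x axis) of the muscle-type subunit genes Cox6a2 and Cox8b, their usual counterparts Cox6a1 and Cox8a, and the muscle markers Ckm and Acta1; the line separates CCI from sham. Sham 1 holds the highest point of each muscle gene (142 counts of Cox6a2, 2825 of Ckm), while the usual forms stay level.

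Complex V, the ATP synthase, had the most negative median of the 5 complexes, -0.12, with 13 of 17 genes negative. At an unadjusted p under 0.05, 2 were lower (11.8%, beside 5.18% of all rows) and 1 higher (5.88%, near the 5.57% of all rows). All 17 genes were above 10 FPKM. Of 4176 protein-coding rows of at least 10 FPKM, 471 were lower and 328 higher at that level, so the lower share of complex V was near that of such rows. The catalytic beta subunit Atp5f1b, the most abundant member at 340.0 FPKM, was at 604.7, 646.0 and 639.6 CPM in CCI and 654.9, 709.4 and 714.0 CPM in sham. The groups were apart by a narrow margin, with a log2 fold change of -0.14 ± 0.06 (SE), unadjusted p = 0.0521 and adjusted p = 0.473 in edgeR. Its partner Atp5f1a, the alpha subunit, was lower with unadjusted p = 0.0483 and adjusted p = 0.459 in edgeR, although CCI 2 at 336.0 CPM lay above sham 1 at 334.2 CPM.

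The c subunit forms the rotating ring and is encoded by 3 genes that make the same mature protein, Atp5mc1, Atp5mc2 and Atp5mc3, and their log2 fold changes differed in sign. Atp5mc3 was at 75.9, 78.7 and 70.4 CPM in CCI and 81.7, 85.4 and 88.2 CPM in sham, with all CCI rats lower, a log2 fold change of -0.18 ± 0.06 (SE), unadjusted p = 0.0269 and adjusted p = 0.385 in edgeR. Its unadjusted p was above 0.05 without CCI 3, sham 2 or sham 3, and was 0.0875 at most. Atp5mc1 had nearly the same value, -0.18 ± 0.10 (SE), with overlapping groups and adjusted p = 0.615 in edgeR. Atp5mc2 was at 32.9, 29.8 and 33.97 CPM in CCI and 30.4, 23.2 and 16.6 CPM in sham, and its log2 fold change was 0.46 ± 0.21 (SE), with unadjusted p = 0.0652 and adjusted p = 0.507 in edgeR. The CCI libraries were close together and the sham libraries far apart, with sham 1 inside the CCI range. Without sham 1 it passed the study's limits, with a log2 fold change of 0.69 and unadjusted p = 0.00610 in edgeR, whereas without sham 3 the value was 0.27 with unadjusted p = 0.107, and without any other single library it did not pass either. The difference between these 3 genes was not tested.

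Atp5if1, the inhibitor that blocks the synthase when it would run backwards and spend ATP, was the single complex V gene higher at an unadjusted p under 0.05 in edgeR. It was at 69.5, 76.9 and 74.9 CPM in CCI and 67.2, 66.2 and 61.3 CPM in sham, without overlap. The log2 fold change was 0.18 ± 0.07 (SE), with unadjusted p = 0.0292 and adjusted p = 0.394 in edgeR, and the unadjusted p was above 0.05 without CCI 2, where it was 0.0912, without CCI 3 and without sham 3. The remaining extreme, Atp5md, a small membrane subunit at 6.46, 4.69 and 6.61 CPM in CCI and 7.12, 7.63 and 6.99 CPM in sham, had a value of -0.29 ± 0.16 (SE), adjusted p = 0.612 in edgeR, from a short row on another chromosome than the RefSeq gene.

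Genes around the respiratory chain were set beside the subunits, as lists by function that were chosen with earlier results of these data known. No gene of the 8 lists below passed the fold limit with p under 0.05. None had an adjusted p under 0.05 in edgeR, the smallest being 0.132, among the biogenesis regulators. Assembly factors, which build the complexes, had a median log2 fold change of -0.08 over 43 genes, and 0 were higher and 3 lower at an unadjusted p under 0.05 (6.98%, near the 5.18% of all rows), namely Tmem70 and Atpaf1 of ATP synthase assembly and Ndufaf1 of complex I assembly. The TCA cycle and pyruvate dehydrogenase list had a median of -0.12 over 17 genes, with 4 lower (23.5%) and 0 higher, and every CCI library lay below every sham library for 9 of the 17 (52.9%, beside 8.7% of all rows). Of 4176 protein-coding rows of at least 10 FPKM, 471 were lower and 763 lay wholly below. The 4 lower genes of the list were Sucla2 and Suclg1 of succinyl-CoA ligase, Idh3b of isocitrate dehydrogenase and Pdhx of pyruvate dehydrogenase, at -0.23 to -0.17.

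Glycolysis, which makes ATP without oxygen, was divided, with a median of 0.04 over 18 genes. At an unadjusted p under 0.05, 4 genes were higher (22.2%, beside 5.57% of all rows) and 2 lower (11.1%, beside 5.18%). The 4 higher were Slc2a1, the glucose transporter, at 0.22, Eno1 at 0.22, Pgk1 at 0.24 and Pkm at 0.17, from a row joined with Parp6. The 2 lower were Pfkm at -0.26 and Ldhb at -0.25. Mitochondrial ribosomal proteins, which translate the mitochondrial subunits, had a median of -0.07 over 74 genes, with 4 lower (5.41%) and 2 higher (2.7%) at an unadjusted p under 0.05, beside 5.18% and 5.57% of all rows. Among mitochondrial antioxidant enzymes, with a median of -0.10 over 9 genes, Sod2, the superoxide dismutase of the matrix, was higher at 0.36 ± 0.09 (SE), with 227.0, 192.3 and 180.3 CPM in CCI and 150.9, 163.4 and 152.9 CPM in sham. Carriers, porins and uncoupling proteins had a median of -0.05 over 10 genes, with 0 past p under 0.05, and hypoxia response genes one of -0.17 over 6, with Egln3 lower.

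The regulators of mitochondrial biogenesis had a median of -0.06 over 15 genes, and 3 were lower at an unadjusted p under 0.05 (20%, beside 5.18% of all rows), namely Esrrg, Ppargc1b and Polg. Esrrg, an estrogen-related receptor that binds the ERR motif, was at 24.4, 26.0 and 27.7 CPM in CCI and 38.6, 33.2 and 38.1 CPM in sham, a wide gap for this pathway, with a log2 fold change of -0.49 ± 0.09 (SE). Ppargc1b, a coactivator of these receptors, was at -0.42 ± 0.16 (SE). Ppargc1a, the best known coactivator, was at 29.4, 26.1 and 27.4 CPM in CCI and 29.4, 21.2 and 24.2 CPM in sham, with overlapping groups and 0.15 ± 0.13 (SE). Nrf1, Gabpa, Esrra and Tfam had log2 fold changes of 0.02, 0.22, -0.27 and -0.07, and none passed the test. Among the 10 members with an ERR motif the median was -0.07, and among the 59 with a promoter and without it -0.09, while for NRF1 the medians were -0.11 over 18 members and -0.08 over 51.

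**Figure D5:**
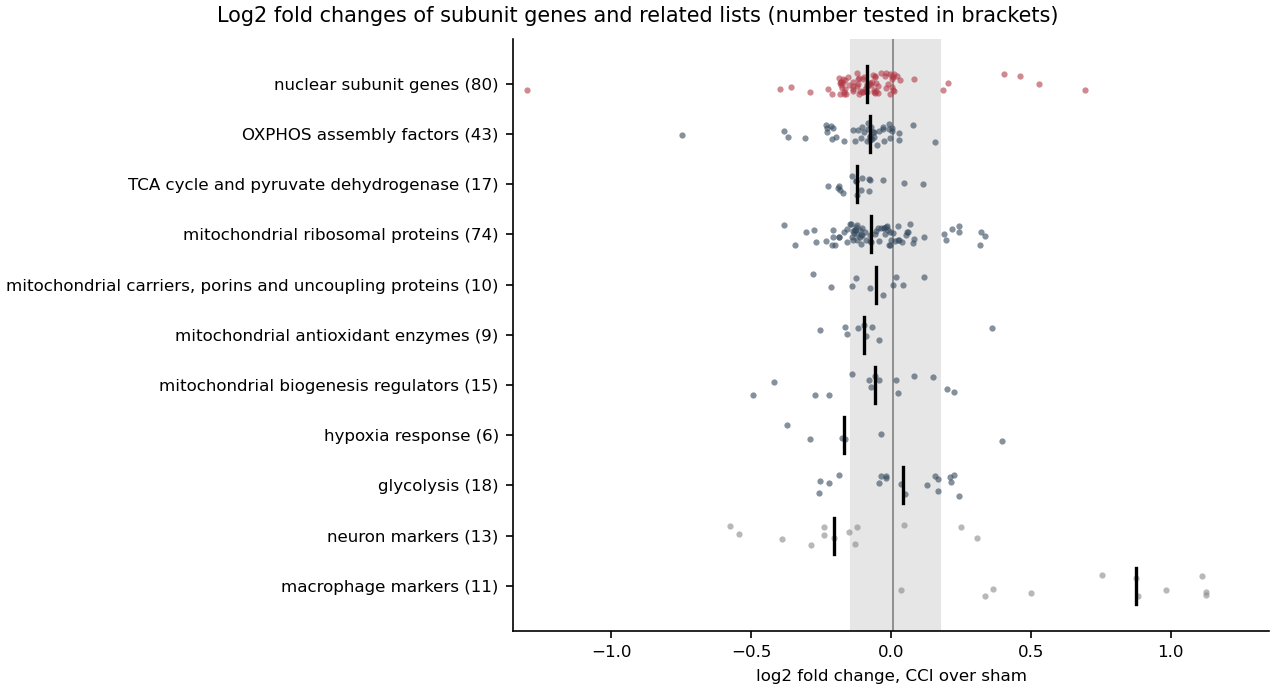
Log2 fold change of CCI over sham (x axis, values beyond 1.3 in size drawn at the edge) for each gene of the subunit group and of related and marker lists (y axis, number tested in brackets), with the median of each list as a black bar; the grey band runs from the lower to the upper quartile of all 26663 rows and the thin line is their median. The subunit genes crowd at a median of -0.09 inside the band, while glycolysis lies at 0.04 and macrophage markers at 0.87.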

How the data were processed

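RNA of 3 CCI and 3 sham rats was sequenced in 6 libraries, 1 rat each. Per the labels, the authors used HISAT2 2.0 and StringTie 1.3.0, and the study's methods name HISAT, for mapping to a rat genome called V101, and StringTie, for assembly. The deposited counts are whole reads per assembled gene row, and the deposited FPKM values are those counts divided by library total and row length. Whether strand was used is not given in the sources used here. Members and lists were chosen with earlier results of these data known. Named genes were those past the study's limits, the most abundant, the 2 highest and the 2 lowest log2 fold changes of each complex among genes with a mean of at least 100 counts, alternative isoforms with their usual counterparts, all of complex II, 5 regulators and muscle markers past the limits, and others are named to complete a count or, as with Ndufa10l1 and Atp5mc1, after their values were seen.

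edgeR 4.0.16 (quasi-likelihood test, TMM, 2.52 prior degrees of freedom) was fitted in R 4.3.3 on 26663 rows whose mean FPKM reached 0.5, with p-values adjusted by Benjamini-Hochberg over all of them. Confidence intervals are at 95%. On simulated counts of these 26663 rows, 183 of 200 changed genes and 2.82% of the others were called at the study's limits. The limits include a minimum fold change, so these shares give no detection rate for differences as small as those of most members. Alternatives were DESeq2 1.42.0, its size factors, limma 3.58.1 on log2(FPKM + 1) and log2(FPKM + 0.1), other filters, rows summed per symbol, protein-coding rows alone, a replicate block and leaving out each library. Added after seeing the data were the row with the largest FPKM and the 64 members whose row holds 1 gene, matches RefSeq in chromosome and span and has counts in every library. The other 16 members include 6 joined rows, 4 on another chromosome and 12 over 2 times as long as the RefSeq gene. Ndufs6 had no protein-coding row. The p-values weigh the difference between groups against the spread of rats within groups, which edgeR estimates partly from all rows tested. Promoters were searched in Python 3.11.15.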

Additional observations from a re-analysis of the deposited data

How the results depend on the processing

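The median log2 fold change of the members stayed negative under all 17 alternatives, from -0.12 to -0.06, and between 57 and 71 of the 80 were negative when 1 library was left out. The number called higher, 1 as reported, was 0 in DESeq2, limma on log2(FPKM + 1) and the replicate block, and 0 to 1 when 1 library was left out, the 1 without sham 1 being Atp5mc2. The number called lower, 0 as reported, became 1 (Cox6a2) without sham 2. The 10 members lower at an unadjusted p under 0.05 became 6 in DESeq2 and 3 to 11 when 1 library was left out, and the 3 higher became 1 with the replicate block and 1 to 3 when 1 library was left out. Members at an adjusted p under 0.05 numbered 1 in DESeq2. Without an FPKM filter, carriers had a median of -0.10 and hypoxia genes one of -0.10. When 1 library was left out, medians ran from -0.15 to -0.065 for antioxidant enzymes from -0.20 to -0.10 for hypoxia genes, from 0.0068 (without CCI 2) to 0.066 for glycolysis, from -0.065 to -0.026 (without CCI 3) for biogenesis regulators, and, with the value nearest zero without sham 2, from -0.086 to -0.035 for mitochondrial ribosomal proteins and from -0.10 to -0.043 for assembly factors. The log2 ratio of the members' summed FPKM, -0.055 as reported, was -0.017 without CCI 1 and -0.083 without CCI 2. In limma on log2(FPKM + 1) and log2(FPKM + 0.1), values near zero turned positive, at 0.0050 in both for Cox4i1, 0.00089 and 0.00093 for Ndufa4 and 0.011 and 0.012 for Sdhc, which was at 0.0011 in a fit of protein-coding rows. Leaving out 1 library also turned signs, with Ndufv2 from -0.089 to 0.028, Ndufa1 from -0.056 to 1.11, Ndufb2 from -0.026 to 0.15, Uqcr10 from -0.064 to 0.55, Uqcr11 from -0.035 to 0.043, Cox4i1 from -0.050 to 0.044, Cox6b1 from -0.017 to 0.025, Cox6a1 from -0.078 to 0.018, Cox8a from -0.041 to 0.055, Ndufa4 from -0.074 to 0.059, Sdhc from -0.027 to 0.041 and Nrf1 from -0.031 to 0.082. Replicate numbers were not treated as pairs of rats. Same-numbered libraries deviated with correlations of -0.009, -0.0187 and -0.0533 over all rows tested, a check that cannot show whether rats shared a batch. The replicate block changed no other count of members by over 1.5 times. The cause of these changes was not tested. With 3 rats per group, a median SE of 0.08 on the log2 scale leaves differences under about 0.2 unresolved for most genes, and counts below 100 leave Cox6b2, Cox6a2 and Ndufa4l2 imprecise.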
